A study of Homo sapiens with 16 samples.

Results

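Erastin was examined in HT-1080 cells that carried the control siRNA, siNS. The cells, HT-1080, are an established line from a human fibrosarcoma. The comparison sets 2 libraries of siNS cells given erastin (siNS/Erastin) against 2 libraries of siNS cells without it (siNS), which together are 4 of the 16 libraries of the series. These 4 were chosen by their sample titles, because the treatment text with erastin at 10 µM for 24 h stands in every label, that of untreated cells included. The other 12 libraries form 6 groups of 2: cells with an siRNA against DCAF8 (siDCAF8), cells overexpressing WDR76 (oeWDR76), and cells with siRNAs against both DCAF8 and LSH (siDCAF8+siLSH), each without and with erastin. DCAF8 selects substrates for CRL4 ubiquitin ligases, and HELLS encodes LSH, which remodels chromatin. The oeWDR76 groups have no empty-vector control here, all groups come from 1 cell line, and the labels do not tell whether the 2 libraries of each group came from separate cultures, so p-values measure only the spread between these libraries.

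Erastin inhibits system xc-, the cystine-glutamate exchanger made of SLC7A11 and SLC3A2. Cystine taken up this way is reduced to cysteine, which goes into glutathione, and GPX4 uses glutathione to reduce lipid hydroperoxides in membranes. Loss of this protection leads to ferroptosis, an iron-dependent death by lipid peroxidation to which HT-1080 cells are known to be sensitive. Transcripts known to respond to oxidative stress are controlled in large part by NRF2, those that respond to amino acid shortage by ATF4, and those that respond to unfolded cytosolic proteins by HSF1.

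Promoters are shown for 4 gene lists that are described further on. The stretches below are from RefSeq promoter windows on GRCh38.p14 (250 bases before to 50 after each gene's start), are written 5′ to 3′ along the gene, and end before the start site. Capitals mark matches on either strand. The first 3 belong to genes of the NRF2 list that were higher with erastin, and capitals mark the antioxidant response element TGACNNNGC. GCLM lies at chr1:93909431-93909504 (minus strand), TXNRD1 at chr12:104215640-104215728 (plus strand), and ME1 at chr6:83431140-83431228 (minus strand). The stretch of SQSTM1, chr5:179806243-179806392 (plus strand), also higher with erastin, is shown because its window holds no match.
GCLM: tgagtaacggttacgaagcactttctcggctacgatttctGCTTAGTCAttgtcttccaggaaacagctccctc
TXNRD1: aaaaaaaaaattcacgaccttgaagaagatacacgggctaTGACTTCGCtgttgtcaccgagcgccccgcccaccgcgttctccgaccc
ME1: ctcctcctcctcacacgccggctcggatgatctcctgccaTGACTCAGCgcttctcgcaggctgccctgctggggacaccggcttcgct
SQSTM1: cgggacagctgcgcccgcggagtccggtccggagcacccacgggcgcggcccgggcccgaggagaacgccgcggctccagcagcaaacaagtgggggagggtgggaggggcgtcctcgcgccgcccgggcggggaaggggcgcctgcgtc
Of the ATF4 list, CHAC1 (chr15:40953222-40953309 (plus strand)) is shown with the C/EBP-ATF response element TGATGNAA in capitals, and DDIT4 (chr10:72273774-72273923 (plus strand)) as a strong mover without it. Both were lower with erastin.
CHAC1: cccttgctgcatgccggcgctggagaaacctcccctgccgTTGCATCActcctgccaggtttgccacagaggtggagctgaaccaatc
DDIT4: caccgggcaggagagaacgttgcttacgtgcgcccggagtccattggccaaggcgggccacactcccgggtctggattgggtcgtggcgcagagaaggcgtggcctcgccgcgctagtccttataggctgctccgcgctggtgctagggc
Of the heat shock list, HSPB8 (chr12:119178803-119178890 (plus strand)) and HSPA1B (chr6:31827593-31827680 (plus strand)) are shown with the heat shock element GAANNTTC in capitals, and HSPH1 (chr13:31162389-31162538 (minus strand)) without it. All 3 were higher with erastin.
HSPB8: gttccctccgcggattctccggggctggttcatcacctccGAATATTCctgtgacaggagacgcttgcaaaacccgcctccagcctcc
HSPA1B: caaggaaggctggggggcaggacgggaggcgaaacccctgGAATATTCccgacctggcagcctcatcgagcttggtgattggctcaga
HSPH1: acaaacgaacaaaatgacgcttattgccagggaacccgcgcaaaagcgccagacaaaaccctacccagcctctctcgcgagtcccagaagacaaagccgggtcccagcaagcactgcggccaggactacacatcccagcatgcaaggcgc
Of the mitosis list, HMMR (chr5:163460415-163460631 (plus strand)), GTSE1 (chr22:46296804-46296869 (plus strand)) and CCNB2 (chr15:59104896-59105145 (plus strand)) are shown with the cell cycle homology region TTTGAA and the CCAAT box in capitals, and NCAPG (chr4:17810904-17810978 (plus strand)) holds TTTGAA but no CCAAT. All 4 were lower with erastin.
HMMR: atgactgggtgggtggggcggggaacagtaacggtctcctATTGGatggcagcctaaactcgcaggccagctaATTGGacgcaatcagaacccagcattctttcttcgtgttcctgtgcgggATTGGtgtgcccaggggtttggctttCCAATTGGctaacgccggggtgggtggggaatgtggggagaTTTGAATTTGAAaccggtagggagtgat
GTSE1: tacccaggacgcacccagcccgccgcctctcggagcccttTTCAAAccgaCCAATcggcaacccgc
CCNB2: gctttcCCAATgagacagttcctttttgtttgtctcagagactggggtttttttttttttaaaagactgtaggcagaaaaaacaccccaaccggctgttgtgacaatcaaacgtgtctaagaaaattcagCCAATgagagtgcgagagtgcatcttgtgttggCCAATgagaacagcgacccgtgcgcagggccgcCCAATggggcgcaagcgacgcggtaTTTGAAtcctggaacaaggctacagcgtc
NCAPG: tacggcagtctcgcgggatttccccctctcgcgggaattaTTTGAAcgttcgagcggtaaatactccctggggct

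Both strands were searched and neighbouring matches may overlap, as those of CCAAT do in HMMR. Windows were found for 9283 of the 11260 genes tested. TTTGAA stood in 44 of the 65 mitosis windows (67.7%), against 15.4% of all 27305 RefSeq windows and 9.35% of those of all genes tested. CCAAT stood in 72.3% of the mitosis windows, in 35.7% of all windows and in 37.1% of those of all genes tested. Both were in 53.8% of the mitosis windows, and in 6.08% of all. The antioxidant response element was in 6 of the 17 windows of NRF2 list genes that were higher with erastin (35.3%), against 13.6% of all windows. Among all genes higher with erastin its share was 15.6%, close to the 15.3% of all genes tested. The heat shock element was in 7 of the 20 windows of heat shock list genes that were higher (35.0%), against 6.87% of all. Its share was 4.58% among all genes tested and 5.23% among all genes higher with erastin. The C/EBP-ATF response element was in 5 of 11 windows of aminoacyl-tRNA synthetase genes that were lower (45.5%), in 2 of 7 of lower amino acid synthesis genes, in 2 of 8 of lower amino acid transporters, and in 1 of 12 of lower genes of the ATF4 list, against 3.67% of all windows. For the C/EBP-ATF response element the share was 1.66% among all genes tested and 2.36% among all genes lower with erastin. The E-box CACGTG was in 3 of 10 windows of lower genes of the glycolysis list and in 7.43% of all. Its share was 10.4% among all genes tested, and it was rarer among all lower genes (9.38%) than among all higher ones (12.97%). A match describes these letters, and no match says only that they are not in the window.

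The deposited table gives FPKM, fragments scaled by transcript length and library size, to 2 decimals. Low values of genes of 600 to 900 bases fell on steps, from which a depth of about 16600000 to 17200000 fragments per library can be read, with 87.7% to 97.6% of such values within 0.2 of a whole fragment. The 4 siNS libraries had totals of 449181 to 453564 FPKM, and log2(FPKM + 1) of the 2 siNS libraries correlated across genes at r = 0.997, and of the 2 siNS/Erastin libraries at 0.996. Of 12 fibrosarcoma or mesenchymal markers, 10 had a mean of at least 1 FPKM in these 4 libraries, and their summed level was 5169 to 5229 FPKM in siNS and 5274 to 5358 in siNS/Erastin. Of the 10, 2 were higher and 6 lower, VIM, FN1 and LGALS1 among the latter. THY1 and NT5E were under 1 FPKM. Epithelial markers summed to 4.12 to 4.42 FPKM in siNS and 3.71 to 3.75 in siNS/Erastin, with KRT5 at 0. Endothelial markers summed to 4.74 to 4.79 and 2.44 to 2.51 FPKM, muscle markers to 2.91 to 3.13 and 1.69 to 1.90, and neural markers to 1.63 to 2.13 and 1.35 to 1.60. Immune markers summed to 130 to 138 and 115 to 127 FPKM. The part of other cells in the results was not tested.

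The targeted genes bear on the labels of the cells compared. DCAF8 was at 38.9 and 40.4 FPKM in siNS, 11.8 and 12.2 FPKM in siDCAF8 and 17.4 and 14.3 FPKM in siDCAF8+siLSH, and WDR76 at 3.52 and 2.89 FPKM in siNS and 268 and 267 FPKM in oeWDR76. HELLS, which encodes LSH, was at 4.05 and 4.07 FPKM in untreated siDCAF8+siLSH cells, below the 6.83 and 7.45 FPKM of siDCAF8 but not below the 4.05 and 3.98 FPKM of siNS. No measured gene marks erastin itself, so the titles were taken as given. An exchange of the siNS titles would turn the sign of every difference between siNS/Erastin and siNS. It would also change the differences of responses between siNS and the other cells. Genes bear on such an exchange in both ways. CHAC1 and SLC7A11 were lower in the siNS libraries titled erastin than in the untreated ones, whereas SLC7A11 was higher with erastin in siDCAF8 and siDCAF8+siLSH. Without erastin, CHAC1 was higher in siNS than in siDCAF8 or siDCAF8+siLSH, and SLC7A11 was near its level in those cells. HMOX1 and FTH1 were higher, and most mitosis genes lower, in the libraries titled erastin of siNS, siDCAF8 and siDCAF8+siLSH alike.

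Erastin moved many genes by a little and few by much. Of 11260 genes tested, 4223 (37.5%) were called at a limma adjusted p under 0.05: 1704 (15.1%) were higher in siNS/Erastin and 2519 (22.4%) were lower. Of the called genes, 82.7% differed by less than 0.5 on the log2 scale, and the middle 90% of all genes tested lay between -0.49 and 0.36, with a median of -0.03. The 2 groups did not overlap in 4217 of the 4223 called genes. With 2 libraries a group, a call nearly brings this with it, so it adds no support to a call. The share among all genes tested is not given here. Only 66 genes (0.586%) were both called and changed at least 2-fold, 19 higher and 47 lower. The split between higher and lower depends on the scaling. With quantile normalization 2234 were higher and 2058 lower, and with median-ratio scaling 2093 and 2137. Leaving out siNS replicate 2 left 2796 called genes, 1077 of them higher, and with each of the other 3 libraries left out 3004 to 3277 were called. List counts below are read against these percentages, and log2 differences are on the scale of log2(FPKM + 1), which understates changes of low genes.

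**Figure D1:**
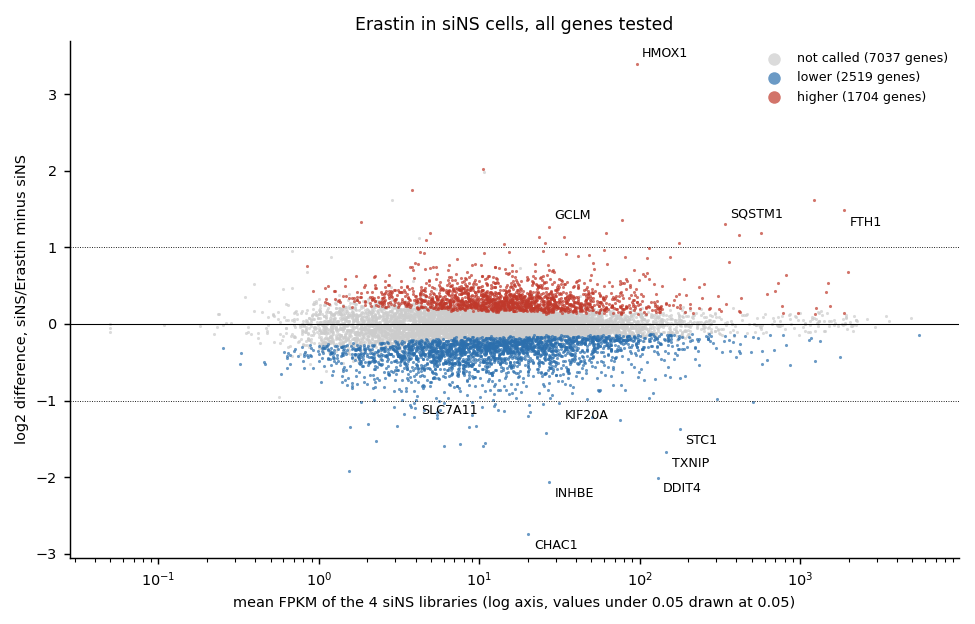
Log2 difference of siNS/Erastin minus siNS (vertical axis) against the mean FPKM of the 4 siNS libraries (log axis) for the 11260 genes tested, with called genes in red (1704 higher) and blue (2519 lower) and dotted lines at 2-fold. Most called genes lie between the dotted lines, and 66 lie on or beyond them.

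The genes described next have the largest differences among called genes, and were chosen so that their groups do not overlap. HMOX1, heme oxygenase, which opens the heme ring and frees its iron (chr22:35381067-35394214), stood at 14.4 and 15.1 FPKM in siNS and at 111 and 241 FPKM in siNS/Erastin. Both treated libraries were far above both untreated ones, and they differed from each other by more than 2-fold (log2 difference 3.39, SE 0.30, limma adjusted p = 5.06e-07). CHAC1, an enzyme that degrades glutathione (chr15:40953149-40956519), went from 33.8 and 37.9 FPKM in siNS to 3.71 and 5.41 FPKM in siNS/Erastin, the largest fall of all genes tested (log2 difference -2.74, SE 0.14, limma adjusted p = 3.75e-09). Its RNA is known from other work to rise when cystine uptake is blocked, and here both treated libraries lay below both untreated ones. DDIT4, an inhibitor of mTORC1 (chr10:72273919-72276039), was at 207 and 207 FPKM in siNS and at 47.3 and 54.6 FPKM in siNS/Erastin (log2 difference -2.01, SE 0.13, limma adjusted p = 2.11e-08). S100P, a small calcium-binding protein, rose from 1.32 and 1.08 to 5.63 and 7.14 FPKM, KRT81, a hair keratin, from 41.6 and 44.8 to 112 and 112 FPKM, and PTGES, a prostaglandin E synthase, from 0.79 and 0.44 to 2.92 and 3.17 FPKM. TXNIP, which restrains glucose uptake and binds thioredoxin (chr1:145992426-145996631), fell from 231 and 216 to 76.4 and 62.8 FPKM (log2 difference -1.67, SE 0.13, limma adjusted p = 1.24e-07). STC1, a secreted glycoprotein, fell from 262 and 251 to 96.7 and 100.05 FPKM, and C5AR1, a complement receptor, from 12.7 and 13.1 to 4.19 and 4.73 FPKM.

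**Figure D2:**
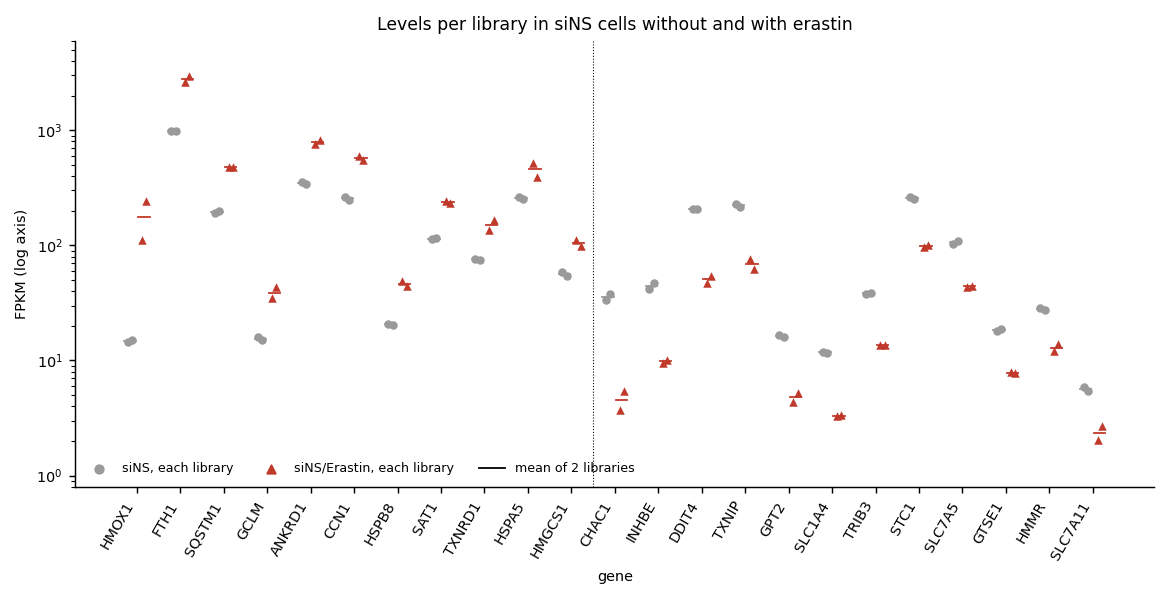
FPKM (log axis) of 23 genes in each of the 2 siNS libraries (grey circles) and 2 siNS/Erastin libraries (red triangles), with a line at each mean. The 11 genes on the left were higher and the 12 on the right lower in both treated libraries, and the 2 treated libraries of HMOX1, at 111 and 241 FPKM, stand farthest apart.

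The transporter that erastin blocks was itself lower at the RNA level. SLC7A11, its cystine-carrying chain, was at 5.86 and 5.43 FPKM in siNS and at 2.02 and 2.69 FPKM in siNS/Erastin (log2 difference -0.99, SE 0.16, limma adjusted p = 0.000166). SLC3A2, the chain that anchors it in the membrane, was at 102 and 108 FPKM and at 54.9 and 59.4 FPKM with erastin (log2 difference -0.86, SE 0.06, limma adjusted p = 2.95e-08). The groups did not overlap for either gene, as for nearly every called gene. In bulk RNA, a lower level in every cell and fewer cells that hold the RNA cannot be told apart. CTH, which makes cysteine from cystathionine, fell from 9.3 and 8.36 to 3.84 and 4.19 FPKM, SLC1A4, a neutral amino acid transporter, from 11.9 and 11.7 to 3.28 and 3.34 FPKM, and CARS1, the cysteinyl-tRNA synthetase, from 71 and 72.7 to 37.8 and 39.7 FPKM. MAT2A, which makes the methyl donor S-adenosylmethionine, fell by 0.56 on the log2 scale, and CTNS, the exporter of cystine from lysosomes, by 0.33. MAT2B fell by 0.16, but not without siNS replicate 1 (limma adjusted p = 0.249) or siNS/Erastin replicate 1 (0.248), nor under median-ratio scaling (0.0900) or quantile normalization (0.0987). CBS, the enzyme before CTH, was not called (12.6 and 14.6 FPKM in siNS, 13.7 and 13.7 with erastin), nor were AHCY, MTR, GGT1 and GGT7 (log2 differences of -0.06, 0.04, -0.01 and 0.00). TXNRD1, thioredoxin reductase, which can also reduce cystine, was the 1 gene of this list that rose, from 76.5 and 74.7 to 137 and 167 FPKM. In all, 8 of the 14 tested genes of the list of system xc- and cysteine supply were lower and 1 was higher, with a median log2 difference of -0.25 against -0.03 for all genes. SLC3A1, SLC1A1, BHMT, CDO1 and GGT5 had means under 1 FPKM and were not tested.

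Genes of glutathione synthesis and use moved in both directions. GCLM, the regulatory subunit of the rate-limiting enzyme of glutathione synthesis (chr1:93885199-93909598), was at 16 and 15 FPKM in siNS and at 34.6 and 43.3 FPKM in siNS/Erastin, a 2.41-fold rise (SE 0.09 log2, limma adjusted p = 7.1e-08). The catalytic subunit GCLC was at 8.75 and 8.59 FPKM and at 9.47 and 9.94 FPKM with erastin and was not called (limma adjusted p = 0.0763), though it was called under median-ratio scaling and quantile normalization. GSS, which adds the last residue, was not called (-0.18, limma adjusted p = 0.058). GSR, which reduces oxidized glutathione, rose from 26.4 and 24.8 to 38.2 and 38.9 FPKM, and MGST1, a membrane-bound glutathione transferase, from 48.2 and 43 to 74.3 and 83.8 FPKM. The peroxidase GPX1 fell from 407 and 421 to 363 and 339 FPKM, and ANPEP, a peptidase that splits the dipeptides left by glutathione breakdown, from 115 and 119.7 to 96.6 and 93.5 FPKM. Other members were CHAC2 (-0.42), OPLAH (-0.31), GPX8 (-0.36) and LAP3 (-0.22), which were called lower, GSTO1 (0.19), which was called higher, and GGCT, GSTP1, GSTM3, GSTK1 and MGST3, which were not called (-0.10 to 0.15). Each of the calls of CHAC2, OPLAH, GPX8, LAP3 and GSTO1 was lost with at least 1 library left out. Of 19 glutathione genes tested, 5 were higher and 7 lower, and without siNS replicate 2 or without siNS/Erastin replicate 1 only 4 were lower. Under median-ratio scaling 8 were higher and 7 lower, and under quantile normalization 8 and 6. GPX2, GPX3, GPX7, GSTM2, GSTM4, MGST2 and GSTA4 were under 1 FPKM and were not tested.

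Genes of GPX4 and of the systems that act beside it moved in both directions, and 15 of 27 were not called. GPX4, which reduces lipid hydroperoxides, was at 118 and 126 FPKM in siNS and at 144 and 135 FPKM in siNS/Erastin. The groups did not overlap and the difference was called (log2 difference 0.19, SE 0.05, limma adjusted p = 0.00723), but not without siNS replicate 1 (adjusted p = 0.0879) or siNS/Erastin replicate 1 (0.0920). AIFM2, known as FSP1, which regenerates the antioxidant form of coenzyme Q, was at 8.49 and 8.75 and 10.1 and 10.7 FPKM, with a call (0.24) lost without siNS replicate 1 (limma adjusted p = 0.0653) or siNS/Erastin replicate 2 (0.0787). SPR, of tetrahydrobiopterin synthesis, rose from 25 and 24.5 to 32.5 and 30.8 FPKM, POR, an oxidoreductase known to promote lipid peroxidation, from 15.3 and 15.1 to 19.1 and 19.5 FPKM, and PRDX6 from 116 and 118 to 136 and 139.8 FPKM. HSPA5, an ER chaperone counted here because it binds GPX4, rose from 261 and 254 to 519.6 and 396 FPKM. COQ2, of coenzyme Q synthesis, fell from 11.9 and 12.2 to 7.05 and 7.99 FPKM, STARD7, which carries coenzyme Q precursors and lipid to mitochondria and the cell surface, from 37.2 and 35.7 to 22.5 and 28.4 FPKM, and the selenoprotein synthesis genes SEPHS2 and EEFSEC by 0.39 and 0.34 on the log2 scale. DHODH (0.14), GCH1 (0.17), VKORC1L1 (0.08), MBOAT1 (0.16), PTS (-0.04), PSTK (-0.28), SECISBP2 (-0.16), SEPSECS (-0.13), TRIT1 (-0.17), CYB5R1 (-0.09), PDSS1 (0.00), PDSS2 (0.14), CISD1 (0.16), CISD2 (-0.15) and TXNDC12 (-0.06) were not called. MBOAT2 (0.32) was called higher, but not in every fit with 1 library left out. In all, 7 of 27 tested members were higher and 5 lower, with a median of 0.00, and HSPB1 and PROM2 were not tested.

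Ferritin and heme oxygenase led the iron genes. FTH1, the ferritin heavy chain that stores iron as the ferric form (chr11:61964285-61967660), was at 987 and 989 FPKM in siNS and at 2618 and 2951 FPKM in siNS/Erastin, and FTL, the light chain, at 1503 and 1549 and 2456 and 2429 FPKM. Both treated libraries were above both untreated ones for either chain (log2 difference 1.49, SE 0.10, limma adjusted p = 2.11e-08 for FTH1; 0.68, limma adjusted p = 9.7e-07 for FTL). Both have near-identical copies elsewhere in the genome whose reads could be shared. SLC48A1, a heme transporter, rose from 9.15 and 8.36 to 12.8 and 13.4 FPKM, and SLC11A2, the importer of ferrous iron, from 22.8 and 20.7 to 27.5 and 26.6 FPKM. ACO1, the iron regulatory protein with aconitase activity, rose from 21.2 and 21.9 to 25.4 and 26 FPKM. TFRC, the transferrin receptor, was at 257 and 246 FPKM in siNS and 261 and 276 FPKM with erastin and was not called (limma adjusted p = 0.539). NCOA4, the receptor that takes ferritin to lysosomes, was also not called (-0.09, limma adjusted p = 0.397). STEAP3, a ferric reductase, fell from 114 and 116 to 86.8 and 85 FPKM, FLVCR2, of the heme and choline transporter family, from 2.78 and 3.01 to 1.41 and 1.77 FPKM, and the heme synthesis enzyme UROD by 0.42 on the log2 scale. PCBP1 (0.20) and FLVCR1 (0.31) were called higher, and ALAS1 (-0.26), PPOX (-0.44) and PCBP2 (-0.15) lower, each with a call lost in at least 1 library's absence. Members that were not called included, beside CISD1 named above, IREB2 (-0.10), FBXL5 (-0.03), SLC39A14 (-0.12), SLC39A8 (0.18), SLC25A37 (0.17), SLC25A28 (-0.14), FECH (-0.09), CPOX (0.13), HMOX2 (0.16), BLVRA (-0.20), BLVRB (0.01), ISCU (0.01) and NFS1 (0.13). Of 32 iron and heme genes tested, 8 were higher and 7 lower, the latter 4 without siNS replicate 2, while TF, HPX, HAMP, LCN2 and TFR2 were under 1 FPKM.

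The list of NRF2 and its targets was among those with most rises. Of 39 genes tested, 23 were higher and 2 lower, against 15.1% and 22.4% of all genes, with a median log2 difference of 0.28 and 19 to 23 higher with 1 library left out. SQSTM1, the autophagy receptor p62 that also binds the NRF2 inhibitor KEAP1, was at 192 and 198 FPKM in siNS and at 484 and 479 FPKM in siNS/Erastin, a rise with little spread (log2 difference 1.30, SE 0.07, limma adjusted p = 8.47e-09). TKT, a transketolase of the pentose phosphate pathway, and ME1 rose by 0.48 and 0.59 on the log2 scale. ME1, malic enzyme, which supplies NADPH, was at 22.8 and 20.9 FPKM and at 32.1 and 34.5 FPKM with erastin. SRXN1, which repairs peroxiredoxins, was called higher (0.35) but not without siNS replicate 1 (limma adjusted p = 0.0638) or siNS/Erastin replicate 2 (0.0713), and TXN (0.25) not without siNS replicate 2 (0.0795) or siNS/Erastin replicate 2 (0.0653). Among the targets that were not called were PRDX1 (0.00), TALDO1 (0.05) and BLVRB (0.01). SLC7A11, a member of this list as well, was 1 of the 2 that fell.

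Other antioxidant genes did not move together. Of 25 peroxiredoxins and other antioxidant enzymes, 7 were higher and 7 lower, but only 3 were lower without siNS replicate 1, siNS replicate 2 or siNS/Erastin replicate 1, and 4 were higher without siNS replicate 1, siNS replicate 2 or siNS/Erastin replicate 2. SESN2, a sestrin that restrains mTORC1, fell from 27.4 and 29.7 to 12.7 and 11 FPKM, while PARK7, known as DJ-1, fell by 0.20 on the log2 scale. SOD1 and PRDX5 were not called (-0.06 and -0.06). Of 7 metallothioneins and zinc transporters tested, 3 were higher: MT2A, a metal-binding protein, rose from 615 and 656 to 1024 and 953 FPKM, MT1X from 8.46 and 9.65 to 13.2 and 13.4 FPKM, and the zinc exporter SLC30A1 from 16.4 and 18.1 to 26.2 and 25.1 FPKM. Of 33 genes that make or remodel the lipids of ferroptosis, 5 were higher and 8 lower, with 2 to 3 higher and 4 to 5 lower when any 1 of the 4 libraries was left out. SAT1, which acetylates polyamines and is known to promote ferroptosis, rose from 113 and 115 to 245 and 232 FPKM (log2 difference 1.06, SE 0.10, limma adjusted p = 9.66e-07). ELOVL2, an elongase of polyunsaturated fatty acids, fell by 0.43 on the log2 scale.

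Genes of the ATF4 list were called lower more often than higher in the treated cells, 15 against 7 of 35. ATF4 itself was at 398 and 418 FPKM in siNS and at 367 and 364 FPKM in siNS/Erastin, and was not called (log2 difference -0.16, SE 0.06, limma adjusted p = 0.0588). Its control is known to be largely translational, which RNA does not show. TRIB3, a pseudokinase that feeds back on ATF4, fell from 37.8 and 38.8 to 13.5 and 13.8 FPKM (log2 difference -1.42, SE 0.09, limma adjusted p = 2.11e-08). INHBE, an activin subunit, fell from 41.5 and 47.4 to 9.48 and 10.2 FPKM, and JDP2, a leucine zipper factor, from 9.08 and 9.93 to 2.28 and 2.7 FPKM. VEGFA, the angiogenic growth factor, fell from 62.9 and 62.5 to 29.8 and 32.7 FPKM. For each of these 4 genes both treated libraries lay below both untreated ones, which adds nothing to their calls, since nearly every called gene separates. GDF15, a secreted stress cytokine, moved the other way, from 1187 and 1248 to 1944 and 1613 FPKM (log2 difference 0.54, SE 0.09, limma adjusted p = 0.00018). CEBPB was not called (0.08). In all, 13 of the 35 genes tested were not called. Fewer than 7 were called higher without siNS replicate 2, siNS/Erastin replicate 1 or siNS/Erastin replicate 2. The list holds CHAC1, DDIT4 and SESN2 too.

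Enzymes of amino acid synthesis and amino acid transporters were also more often called lower than higher, and a smaller share of the synthetases that charge tRNAs was called lower. Of 24 genes of amino acid and one-carbon synthesis, 14 were lower and 1 higher (median log2 difference -0.27). Fewer of these were called lower with any 1 of the 4 libraries left out. GPT2, the mitochondrial alanine transaminase, fell from 16.5 and 16.1 to 4.35 and 5.21 FPKM (log2 difference -1.59, SE 0.11, limma adjusted p = 6.17e-08), GOT1, the cytosolic aspartate transaminase, from 49.3 and 49.3 to 29.2 and 31.5 FPKM, and MTHFD2, of mitochondrial folate metabolism, from 179 and 172 to 107 and 114 FPKM. ASNS, asparagine synthetase, stood at 68.5 and 67.7 and 52.6 and 59.9 FPKM and was not called (limma adjusted p = 0.108). Of 15 amino acid transporters, 9 were lower and 2 higher. SLC7A5, the leucine transporter LAT1, fell from 102 and 110.2 to 43.3 and 44.6 FPKM (log2 difference -1.25, SE 0.10, limma adjusted p = 2.21e-07), SLC1A5, a glutamine transporter, from 124 and 139.97 to 80.5 and 77.9 FPKM, and SLC7A1, a carrier of cationic amino acids, from 20.2 and 20.4 to 12.8 and 12.8 FPKM. Without siNS replicate 1, siNS replicate 2 or siNS/Erastin replicate 2 only 1 transporter was higher. The taurine transporter SLC6A6 rose from 28.7 and 28.4 to 54.8 and 52.3 FPKM. Of 37 aminoacyl-tRNA synthetases, 14 were lower, 2 higher and 21 not called, with 8 lower without siNS replicate 2 and 9 without siNS/Erastin replicate 1, and 1 higher without siNS/Erastin replicate 2. AARS1 fell from 154 and 159.8 to 81.6 and 85.7 FPKM and SARS1 from 126 and 133 to 88.7 and 94.5 FPKM, while the mitochondrial LARS2 rose by 0.33 on the log2 scale. KARS1 was not called (0.01).

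Cytosolic chaperones rose as a group. Of 33 heat shock proteins and cytosolic chaperones tested, 21 were higher and 3 lower (median log2 difference 0.26), and 20 to 22 were higher with 1 library left out. HSPB8, a small heat shock protein that works with BAG3, was at 20.7 and 20.5 FPKM in siNS and at 48.8 and 44.2 FPKM in siNS/Erastin (log2 difference 1.14, SE 0.07, limma adjusted p = 2.11e-08). HSPA1B and HSPA1A, inducible HSP70 genes, were at 14.1 and 14.8 and 8.67 and 9.36 FPKM in siNS and at 32.3 and 33.4 and 21.3 and 18 FPKM with erastin, and as near-identical copies they can share reads. In the deposited table HSPA1B is placed on an alternate contig of chromosome 6. HSPH1, an HSP110 that recharges HSP70, rose from 17.5 and 15.9 to 32.5 and 34.1 FPKM, DNAJB1, an HSP40, from 25.4 and 25.7 to 37.5 and 35.8 FPKM, and HSPA8, the constitutive HSP70, from 597 and 582 to 827 and 882 FPKM. The groups did not overlap for any of these genes, as for nearly every called gene. The chaperonin subunits CCT2, CCT3 and CCT8 were not called (0.11, -0.11 and -0.03). In the endoplasmic reticulum, HSPA5, the chaperone BiP, and the secreted protein MANF rose by 0.81 and 0.58 on the log2 scale, SDF2L1 from 20.4 and 22.4 to 40.9 and 29.8 FPKM, and HERPUD1, of ER-associated degradation, from 64.7 and 68.6 to 115 and 85.6 FPKM. For HSPA5, SDF2L1 and HERPUD1, siNS/Erastin replicate 1 was the higher of the treated libraries. CALR, CANX and PDIA6 were not called. Of 35 genes of this unfolded protein response list 8 were higher and 5 lower, and the latter were 1 without siNS replicate 2 and 2 without siNS/Erastin replicate 2, or under median-ratio scaling or quantile normalization.

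Genes of mitosis were lower almost without exception. Of 75 tested, 73 were lower and 0 higher, with a median log2 difference of -0.62 and 68 to 72 lower with 1 library left out. GTSE1, which binds microtubules and p53, fell from 18 and 18.7 to 7.99 and 7.73 FPKM (log2 difference -1.13, SE 0.08, limma adjusted p = 7.07e-08), and HMMR, a spindle protein, from 28.7 and 27.5 to 12.1 and 13.8 FPKM. The kinesins KIF20A and CENPE, which act in cytokinesis and at kinetochores, fell from 42.7 and 42.4 to 20.6 and 19.99 FPKM and from 8.47 and 8.42 to 3.42 and 3.86 FPKM. CCNB1, the cyclin of mitotic entry, fell from 95.8 and 97.2 to 53 and 57.7 FPKM. The 2 members that were not called were CENPN (-0.14, limma adjusted p = 0.136) and INCENP (-0.23, limma adjusted p = 0.0844). Genes of G1/S and DNA replication shifted less: of 52, 18 were lower and 6 higher (median -0.10), with 3 higher without siNS replicate 2 and 10 higher under quantile normalization. TK1, thymidine kinase, fell from 32.3 and 34.9 to 23.5 and 20.9 FPKM and TYMS, thymidylate synthase, from 65.7 and 63.1 to 49.6 and 50.1 FPKM. CDC25A, the phosphatase that activates CDK2, rose from 2.43 and 2.82 to 5.81 and 6.12 FPKM (log2 difference 0.94, SE 0.10, limma adjusted p = 3.75e-06) and CCND1, cyclin D1, from 150.1 and 151 to 195 and 202 FPKM. PCNA (0.10) and FEN1 (0.04) were not called. Of 19 histone genes 9 were lower and 2 higher, with 4 higher without siNS/Erastin replicate 2 or under quantile normalization. The variants H2AZ1 and H2AX fell by 0.68 and 0.59 on the log2 scale, but copies of histone genes are alike and their reads uncertain.

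Targets of YAP and TAZ, the coactivators of the Hippo pathway, and of TGF-beta moved in both directions. ANKRD1, a muscle ankyrin-repeat protein and common YAP readout, was at 352 and 339.6 FPKM in siNS and at 753 and 818 FPKM in siNS/Erastin (log2 difference 1.18, SE 0.08, limma adjusted p = 2.95e-08). The matricellular proteins CCN1 and CCN2 rose from 265 and 246 to 598 and 552 FPKM and from 111 and 105 to 214 and 183 FPKM. AMOTL2 and LATS2, which restrain YAP, rose by 0.52 and 0.42 on the log2 scale, and YAP1 was not called (0.10). Of 27 genes in this list 11 were higher and 5 lower, with 2 to 3 lower when any 1 of the 4 libraries was left out. In the list of TGF-beta and activin signalling 6 of 29 were higher and 6 lower. The ligand TGFB2 rose from 9.3 and 8.65 to 13.8 and 12.9 FPKM, the receptor TGFBR2 fell from 42.3 and 39.98 to 22.8 and 25.6 FPKM, and the latent binding proteins went both ways, with LTBP3 at 0.63 and LTBP1 and LTBP2 at -0.52 and -0.72 on the log2 scale. TGFB1 and SMAD3 were not called.

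Matrix genes were more often lower. Of 40 matrix glycoproteins, collagens and laminins, 17 were lower and 2 higher (median log2 difference -0.16). FN1, fibronectin, fell from 692 and 676 to 498 and 457 FPKM, LAMB1, a laminin chain, from 25.5 and 24.9 to 13.7 and 14.1 FPKM, and COL13A1, a membrane collagen, from 43.3 and 43.4 to 31.3 and 29.7 FPKM. LOXL2, a lysyl oxidase, rose from 89.8 and 94 to 121 and 117 FPKM, and COL6A1 and COL6A3 were not called. Of 16 matrix proteases and plasminogen activation genes 6 were lower and 2 higher. MMP14, a membrane-bound metalloprotease, fell from 702 and 745 to 544 and 502 FPKM and PLAU, urokinase, from 373 and 363 to 295 and 278 FPKM. TIMP1, an inhibitor of metalloproteases, was called higher (0.16), a call lost without siNS replicate 1 or siNS/Erastin replicate 1. Of 16 integrins and cadherins 6 were lower and 1 higher, the latter 0 without siNS replicate 2 or siNS/Erastin replicate 1. ITGA2 fell from 196 and 186 to 111 and 125 FPKM and ITGA10 from 49.9 and 48 to 29.9 and 24.7 FPKM, while ITGB1 was not called. In the cytoskeleton 16 of 37 were lower and 9 higher, or 13 and 14 under median-ratio scaling. The tubulins TUBA1B and TUBB4B and the intermediate filament VIM fell by 0.54, 0.54 and 0.43 on the log2 scale. ACTB, cytoplasmic actin, rose from 1242 and 1254 to 1654 and 1676 FPKM, and TPM4, a tropomyosin, from 86.3 and 84.4 to 133 and 130.1 FPKM.

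Of 30 genes of cholesterol synthesis and SREBP control 11 were higher and 6 lower, but 4 were higher without siNS replicate 2 and 5 without siNS/Erastin replicate 1, and 3 were lower without siNS replicate 1. HMGCS1, which makes HMG-CoA, rose from 58.5 and 54.4 to 110.3 and 99 FPKM (log2 difference 0.88, SE 0.13, limma adjusted p = 5.9e-05) and INSIG1, which holds SREBP in the ER, from 38.1 and 35.8 to 72.9 and 58 FPKM. SQLE, squalene epoxidase, rose from 81 and 78.8 to 115 and 105 FPKM. PMVK, further down the mevalonate pathway, fell from 13.3 and 12.9 to 8.07 and 9.29 FPKM, and SREBF1 from 23.3 and 24.8 to 17.4 and 15.3 FPKM. In the list led by TXNIP, glucose uptake and glycolysis, 10 of 30 were lower and 3 higher. LDHA, lactate dehydrogenase, fell from 666 and 636 to 484 and 536 FPKM, TPI1 from 753 and 777 to 597 and 616 FPKM and PFKL from 27.4 and 27.9 to 20.2 and 21.1 FPKM, while ENO1 and ALDOA were not called. PFKFB3, which makes the activator of phosphofructokinase, rose by 0.33 on the log2 scale. Of 30 hypoxia targets 5 were higher and 6 lower, and 2 were higher without siNS replicate 1 or siNS/Erastin replicate 1 and 3 without either of the others. HIF1A, the oxygen-regulated factor, rose from 155 and 145 to 223 and 229 FPKM, while CA9, a carbonic anhydrase, fell from 19.8 and 20.5 to 11.6 and 11 FPKM.

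MYC and factors of ribosome assembly in the nucleolus were higher. MYC was at 61 and 59.7 FPKM in siNS and at 93.3 and 86.1 FPKM in siNS/Erastin (log2 difference 0.56, SE 0.08, limma adjusted p = 4.66e-05). Of 47 nucleolar factors 25 were higher and 0 lower, with a median log2 difference of 0.19 and 19 to 25 higher with 1 library left out. GNL3, nucleostemin, rose from 82.3 and 80.8 to 127 and 129 FPKM (log2 difference 0.65, SE 0.05, limma adjusted p = 2.39e-07), GNL2, of 60S subunit assembly, from 37.4 and 40.6 to 56.3 and 53.4 FPKM, and NOP16 from 44 and 45.9 to 59.9 and 61.8 FPKM. NPM1 was not called (0.05). The proteins of the finished cytosolic ribosome moved less: of 50, 3 were higher and 0 lower, none was called when any 1 of the 4 libraries was left out, and the scaling moved the count: median-ratio scaling gave 7 higher and 0 lower, GC and length correction 11 and 0, and quantile normalization 2 and 4. Of 52 nuclear-encoded subunits of the respiratory chain 21 were lower and 0 higher (median -0.15), with 11 lower without siNS replicate 2 and 12 without siNS/Erastin replicate 1. CYC1, of complex III, fell from 253 and 265 to 205 and 199 FPKM. Of 47 mitochondrial ribosomal proteins 5 were higher and 6 lower, with 3 higher without siNS replicate 2 and 3 lower without siNS replicate 1 or siNS/Erastin replicate 1. Of 27 immediate early factors 10 were higher and 4 lower, and 6 were higher without siNS/Erastin replicate 1. SRF rose from 18.7 and 18.9 to 28.2 and 26.2 FPKM, while KLF10 fell from 11.1 and 10.4 to 6.11 and 6.08 FPKM and JUN was not called (-0.06).

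Secreted signals and feedback genes of NF-kB were more often higher than lower, and calls among interferon genes were not far from the background. Of 27 chemokines, cytokines and feedback genes 10 were higher and 2 lower, with 6 higher without siNS replicate 1 and 1 lower when any 1 of the 4 libraries was left out. CSF1, the macrophage growth factor, rose from 84.6 and 86.3 to 142 and 130.4 FPKM, LIF from 24.4 and 25.4 to 39.2 and 36.2 FPKM and CCL5 from 74.7 and 85.4 to 124 and 115 FPKM, while IL6 fell from 17.8 and 15 to 8.1 and 8.39 FPKM (log2 difference -0.91, SE 0.13, limma adjusted p = 7.13e-05). TNFAIP3, the inhibitor A20, rose by 0.47 on the log2 scale, and NFKBIA was not called (0.11). Of 40 interferon-stimulated genes 12 were lower and 5 higher, with 5 to 8 lower and 2 to 3 higher when any 1 of the 4 libraries was left out. TRIM25 and IFITM2 fell by 0.38 and 0.28 on the log2 scale. Of 16 genes of MHC class I presentation 3 were lower, but 0 without siNS replicate 2 and 1 without siNS/Erastin replicate 2, and the class I light chain B2M was not called (0.09). In prostaglandin and leukotriene synthesis 3 of 10 were higher and 1 lower, the latter 0 when any 1 of the 4 libraries was left out, and ALOX5AP, which presents arachidonate to 5-lipoxygenase, rose from 3.54 and 2.12 to 5.44 and 6.99 FPKM. In RAS-MAPK output 5 of 27 were higher and 7 lower. The phosphatase DUSP5 rose from 71 and 68.9 to 118 and 110.2 FPKM, and the ETS factor ETV5 fell from 33 and 33.8 to 22.2 and 21.8 FPKM.

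Calls in the remaining lists were near or under the background of 37.5%, or split between directions. Of 32 genes of p53 and its targets 7 were higher and 11 lower, with 4 higher without siNS replicate 2 and 7 lower without siNS/Erastin replicate 2. PLK2, a polo-like kinase, rose from 40.9 and 38.9 to 72.2 and 86.1 FPKM, and XPC, of DNA repair, fell from 23.3 and 23.9 to 15.7 and 17.4 FPKM. Of 41 autophagy and lysosome genes 8 were higher and 4 lower, with 4 higher when siNS replicate 1 and 5 when siNS/Erastin replicate 1 was left out, and 2 lower without siNS replicate 1 or siNS/Erastin replicate 2. GABARAPL1, of the autophagosome membrane, rose from 22.6 and 22 to 38.1 and 34.3 FPKM. Of 44 proteasome subunits 6 were higher and 9 lower, with 2 to 5 and 4 to 5 when any 1 of the 4 libraries was left out. The genes targeted elsewhere in the series were not called in siNS cells: DCAF8 was at 38.9 and 40.4 FPKM in siNS and at 36.7 and 36.7 FPKM with erastin (limma adjusted p = 0.301), HELLS at 4.05 and 3.98 and 3.6 and 3.37 FPKM (limma adjusted p = 0.085), and WDR76 at 3.52 and 2.89 and 2.92 and 3.68 FPKM (limma adjusted p = 0.85). Of 20 genes of LSH and DNA methylation 3 were higher and 5 lower, or 6 and 3 under quantile normalization, with 2 to 3 lower when any 1 of the 4 libraries was left out. CDCA7, which recruits LSH to nucleosomes, rose from 8.88 and 8.69 to 14.2 and 13.9 FPKM (log2 difference 0.62, SE 0.07, limma adjusted p = 3.23e-06), and DNMT1, the maintenance DNA methyltransferase, fell by 0.30. Of 33 CRL4 ligase genes 7 were higher and 7 lower, with 4 higher without siNS replicate 2 or siNS/Erastin replicate 2 and 4 lower without siNS/Erastin replicate 1. The receptors DET1 and DDB2 fell by 0.63 and 0.42 on the log2 scale.

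**Figure D3:**
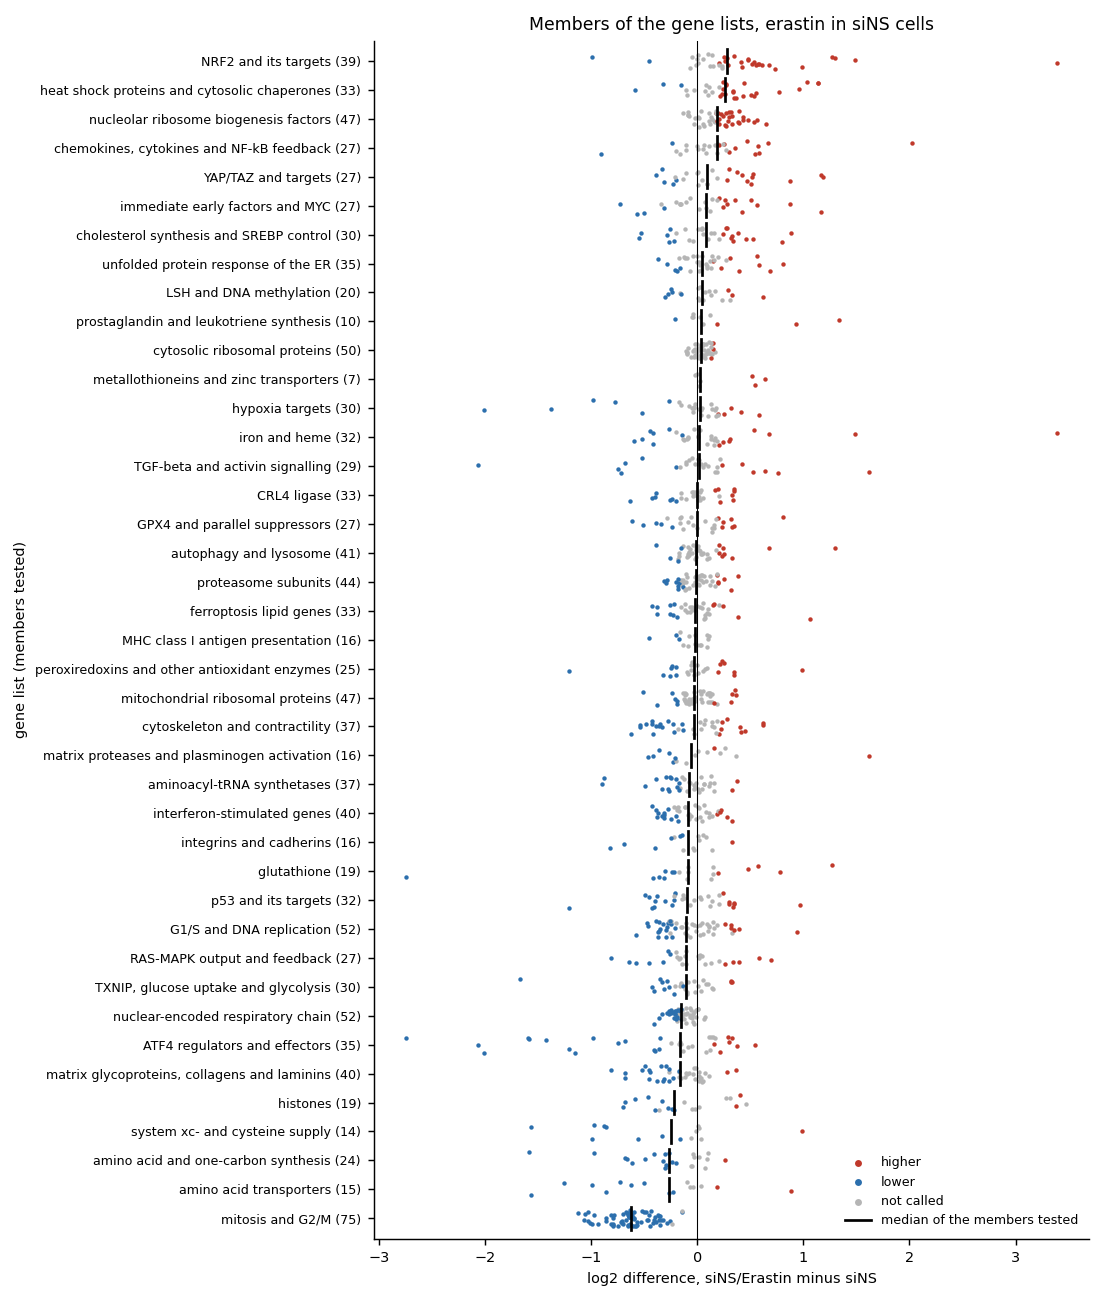
Log2 difference of siNS/Erastin minus siNS (horizontal axis) for each tested member of the 41 gene lists, ordered by the median (black bar), with members higher in red, lower in blue and not called in grey. The list of mitosis lies lowest, with 73 of 75 members lower, and the lists of NRF2, heat shock proteins and nucleolar factors lie highest.

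The response of siNS cells was then set against erastin in the other cells of the series, with a test of the difference of the 2 responses. These responses share no libraries. Against siDCAF8 the responses differed for 2341 genes (20.8%), with 1108 (9.84%) higher and 1233 (11.0%) lower in siNS. Against oeWDR76 they differed for 1593 genes (14.1%), with 575 (5.11%) higher and 1018 (9.04%) lower. Against siDCAF8+siLSH they differed for 2790 genes (24.8%), with 1028 (9.13%) higher and 1762 (15.6%) lower. Erastin alone gave 2065 rises (18.3%) and 2535 falls (22.5%) in siDCAF8, 53 rises (0.471%) and 110 falls (0.977%) in oeWDR76, and 1196 rises (10.6%) and 1074 falls (9.54%) in siDCAF8+siLSH. Of the 4223 siNS calls, 1854 were called in siDCAF8 in the same direction (43.9% of the siNS and 40.3% of the siDCAF8 calls) and 304 in the opposite one, and in siDCAF8+siLSH 824 in the same direction (19.5% and 36.3%) and 331 in the opposite one. With oeWDR76, 105 were shared in direction (2.49% and 64.4%) and 5 were opposite. For siDCAF8 the count of differing responses was 1315 when siNS/Erastin replicate 1 was left out, 1329 for siNS replicate 1 and 1532 for siDCAF8 replicate 1. For oeWDR76 it was between 906 and 988 without either siNS library, siNS/Erastin replicate 1, or any of the 4 oeWDR76 libraries, and that for siDCAF8+siLSH was 1761 without siNS replicate 2. The responses also followed GC content to different degrees across genes, with r of -0.16 in siNS, -0.45 in siDCAF8, -0.19 in oeWDR76 and 0.29 in siDCAF8+siLSH over 11228 genes. After GC and length correction the responses differed for 2514 genes against siDCAF8, 1963 against oeWDR76 and 2690 against siDCAF8+siLSH. The part of GC content in the size of the differences was not tested.

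The ATF4 list responded differently in the DCAF8-depleted cells. In the ATF4 list the response was lower in siNS than in siDCAF8 for 19 of 35 genes and higher for 1, and lower than in siDCAF8+siLSH for 21 and higher for 3. Where 15 were lower and 7 higher with erastin in siNS, 5 were lower and 12 higher in siDCAF8, and 0 lower and 15 higher in siDCAF8+siLSH, while oeWDR76 had 11 lower and 0 higher. CHAC1 was at 7.2 and 6.15 FPKM in untreated siDCAF8 cells and at 5.35 and 5.52 FPKM with erastin, so that untreated siNS cells, at 33.8 and 37.9 FPKM, were well above siDCAF8 cells and treated ones near them. In siDCAF8+siLSH it was at 3.34 and 3.37 FPKM and 3.79 and 5.9 FPKM, and in oeWDR76 at 38.5 and 42.6 FPKM and 19 and 19.4 FPKM. The log2 response in siNS minus that in siDCAF8 was -2.49 (SE 0.20, limma adjusted p = 1.78e-06), minus that in siDCAF8+siLSH -3.14 (2.52e-07), and minus that in oeWDR76 -1.70 (0.000118). INHBE and DDIT4 were also lower without erastin in these cells than in siNS. INHBE was at 17.2 and 13.1 FPKM in untreated siDCAF8 and at 11.9 and 10.7 FPKM in untreated siDCAF8+siLSH, and DDIT4 at 71.4 and 63.8 and at 45.5 and 40.5 FPKM. With erastin INHBE was at 17.5 and 13.2 FPKM in siDCAF8 and at 15.7 and 20.4 FPKM in siDCAF8+siLSH, and DDIT4 at 51.8 and 51.9 and at 43.6 and 66.9 FPKM. In siDCAF8 none of CHAC1, INHBE and DDIT4 was called higher with erastin. The siNS response minus that in siDCAF8 was -2.09 for INHBE and -1.63 for DDIT4, and minus that in siDCAF8+siLSH -2.69 and -2.33. For the receptors C5AR1 and DRD5 the latter difference was -2.12 and -2.79.

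The xc- transporter gene moved in opposite directions. SLC7A11 was at 6.78 and 5.22 FPKM in untreated siDCAF8 cells and at 15.4 and 9.32 FPKM with erastin, and at 5.89 and 5.47 and 9.71 and 11.1 FPKM in siDCAF8+siLSH. Untreated levels in siNS (5.86 and 5.43 FPKM) lay within those of untreated siDCAF8 cells, and treated siNS cells (2.02 and 2.69 FPKM) lay below all of these. Erastin raised it in both other cells (0.90, limma adjusted p = 0.000356, and 0.77, limma adjusted p = 0.00288). The siNS response minus theirs was -1.90 (limma adjusted p = 5.44e-05) and -1.76 (8.25e-05). In oeWDR76 it was at 2.45 and 2.76 FPKM before and 1.66 and 1.88 FPKM after erastin, and the difference from siNS was not called (-0.61, limma adjusted p = 0.0821). CTH was at 10.3 and 8.15 FPKM in untreated siDCAF8 cells and at 21.4 and 16.6 FPKM with erastin, against a fall in siNS, a difference of -1.94 (SE 0.15, limma adjusted p = 1.2e-06), and of -1.90 against siDCAF8+siLSH. Of the 14 genes of cysteine supply the siNS response was lower than in siDCAF8 for 8 and than in siDCAF8+siLSH for 9, and higher for 0 in both.

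**Figure D4:**
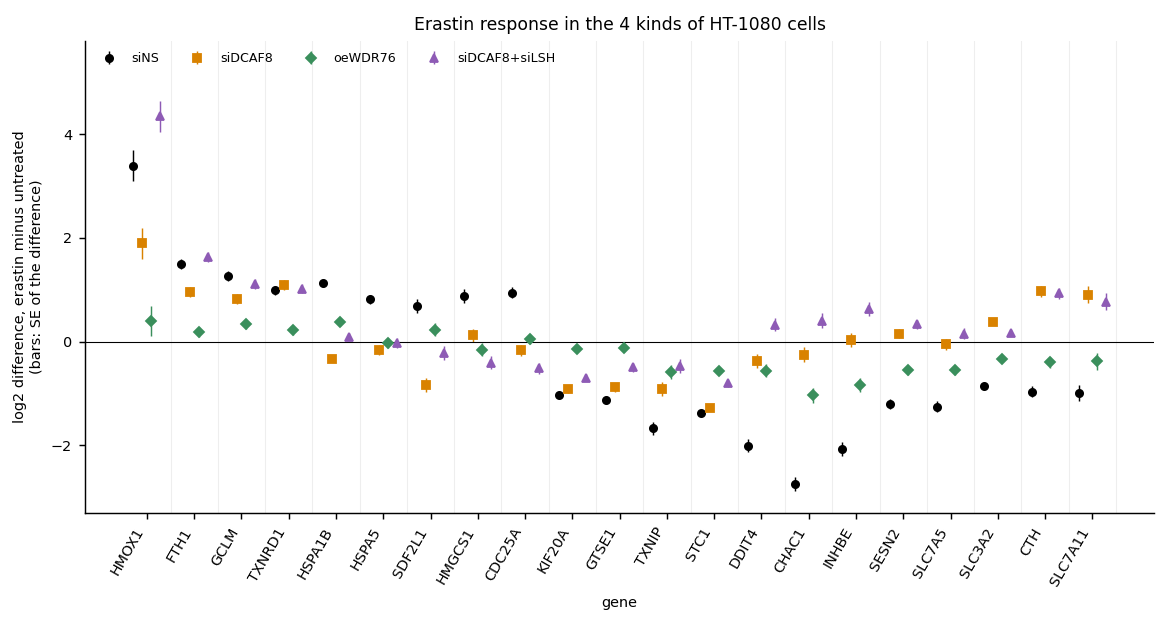
Log2 difference of erastin minus untreated (points, with bars of 1 SE) for 21 genes in siNS (black circles), siDCAF8 (orange squares), oeWDR76 (green diamonds) and siDCAF8+siLSH (purple triangles). SLC7A11 and CTH lie below 0 in siNS and above 0 in siDCAF8 and siDCAF8+siLSH, and HMOX1 and FTH1 lie above 0 in all 4.

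Where heat shock genes differed in response, it was more often higher in siNS: 14 of 33 had a higher response than in siDCAF8, 22 than in siDCAF8+siLSH and 9 than in oeWDR76, with 1, 2 and 2 lower, and most did not differ from siDCAF8 or oeWDR76 by the test. HSPA1B was at 15 and 15.6 FPKM in siDCAF8 and at 11.6 and 12.4 FPKM with erastin, a response lower than that of siNS by 1.46 (SE 0.10, limma adjusted p = 5.38e-07). In the ER, HSPA5 and SDF2L1 rose in siNS and were not called higher in siDCAF8, where SDF2L1 went from 18.9 and 18.8 to 9.62 and 10.7 FPKM; the differences were 0.98 (limma adjusted p = 0.000139) and 1.52 (5.44e-05). HMOX1 reached 59.95 and 27.8 FPKM with erastin in siDCAF8, 20.3 and 24.1 FPKM in oeWDR76 and 191 and 239 FPKM in siDCAF8+siLSH. Its response was higher in siNS by 2.99 than in oeWDR76 (limma adjusted p = 0.000373) and by 1.49 than in siDCAF8 (0.0194), the latter a call lost without siNS replicate 1 (0.0645), siNS/Erastin replicate 2 (0.0837), siDCAF8 replicate 1 (0.0557) or siDCAF8/Erastin replicate 2 (0.0909). The difference from siDCAF8+siLSH was not called (-0.95, SE 0.42, 0.108), but was called at -1.51 without siNS/Erastin replicate 2, the library with the higher HMOX1. GCLM was at 13.4 and 12.7 FPKM in oeWDR76 and at 16.4 and 17.2 FPKM with erastin, and its response was higher in siNS by 0.93 (limma adjusted p = 0.000417). In the NRF2 list of 39 genes 13 responses were higher in siNS than in siDCAF8 and 1 lower. Against oeWDR76 15 were higher and 0 lower, and against siDCAF8+siLSH 4 were higher and 3 lower. The list rose in other cells too. With erastin 19 of its genes were higher in siDCAF8, 23 in siDCAF8+siLSH and 0 in oeWDR76. The median log2 differences were 0.18, 0.36 and 0.07, against 0.28 in siNS.

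The fall of mitosis genes was also found in siDCAF8 and siDCAF8+siLSH, and no member was called in oeWDR76. With erastin 65 of 75 were lower in siDCAF8, 74 in siDCAF8+siLSH and 0 in oeWDR76, where the median log2 difference was -0.02 against -0.52, -0.58 and, in siNS, -0.62. The response was lower in siNS than in oeWDR76 for 68 of the 75, and than in siDCAF8 for 14 (higher for 5). KIF20A was at 32.2 and 30.2 FPKM in oeWDR76 and at 27.4 and 28.5 FPKM with erastin, and the siNS response minus this one was -0.88 (SE 0.09, limma adjusted p = 6.31e-05), and at 24 and 23.4 and 11.2 and 13 FPKM in siDCAF8, where the difference was not called (-0.11, SE 0.09, limma adjusted p = 0.425). Replication genes differed in another way, with 39 of 52 lower in siDCAF8 and 44 in siDCAF8+siLSH against 18 in siNS, and the response was higher in siNS for 25 in either comparison. CDC25A was at 13.2 and 15.7 FPKM in siDCAF8+siLSH and at 10.5 and 9.04 FPKM with erastin, and the siNS response was higher by 1.46 (limma adjusted p = 7.5e-06). HMGCS1 fell there from 39.3 and 41.1 to 29.4 and 30.8 FPKM while it rose in siNS, a difference of 1.29 (limma adjusted p = 0.000155).

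**Figure D5:**
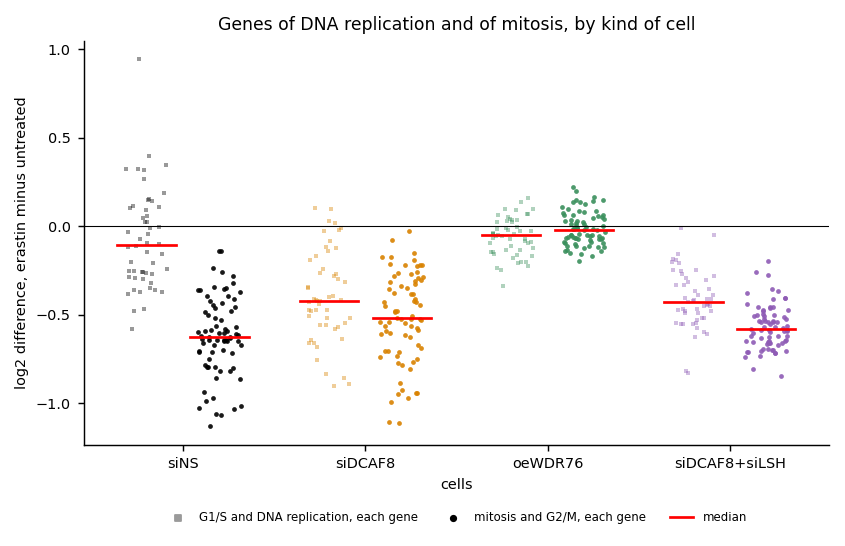
Log2 difference of erastin minus untreated for each gene of G1/S and DNA replication (squares) and of mitosis and G2/M (circles) in the 4 kinds of cells, with red lines at the medians. The mitosis medians are -0.62 in siNS, -0.52 in siDCAF8, -0.02 in oeWDR76 and -0.58 in siDCAF8+siLSH, and the replication median of siNS, -0.10, lies above those of siDCAF8 and siDCAF8+siLSH.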

How the data were processed

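Per the labels' protocols, RNA of HT-1080 cells was extracted with Trizol, amplified with Smart-seq v4, made into libraries with a NEBNext Ultra DNA kit and sequenced on a BGISEQ500. The authors deposited 1 table of FPKM per gene, and the submitters' processing notes name StringTie and GRCh38. Aligner, annotation and the version of StringTie are not given in the sources used, and amplification can distort levels in ways this table does not show. Of 24107 entries, 17552 genes carried values. Those averaging 1 FPKM or more across the 16 libraries were tested as log2(FPKM + 1) with limma 3.58.1 in R 4.3.3: 8 group means over all 16 libraries, eBayes with a trend, 8 residual and 8.57 prior degrees of freedom, two-sided, Benjamini-Hochberg adjusted per contrast, called under 0.05. A fold is the antilog of its log2 difference. FPKM fits no count model. Low values recovered only an approximate depth, so no detection limit is given.

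Genes named are the 20 largest rises and falls among called genes whose groups do not overlap, up to 8 called and 3 uncalled members of each of 41 hand-written lists, all members of the 4 lists on cysteine, glutathione, GPX4 and iron, the 3 targeted genes and the 6 largest response differences on either side. Genes whose reads a close paralog or read-through transcript may share were left out in part. Some results on members of these lists are not reported here. The members, lists and rule were chosen with earlier results of these data known. Alternatives were a pseudocount of 0.1, other filters (none, or mean of at least 5 FPKM), median-ratio scaling, quantile normalization, GC and length correction, a replicate block, a fit restricted to the compared groups, leaving out each library and, added after seeing the data, a fit without the 4 oeWDR76 libraries. The fit was tested on simulated data. Python 3.11.15 with pandas 2.3.3, numpy 2.4.6 and matplotlib 3.10.9 made the summaries and plots.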

Additional observations from a re-analysis of the deposited data

Results flagged for a closer look

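Each value here is the log2 response to erastin in siNS minus that in other cells, and the test of that difference (limma, adjusted over all genes) called each of them. Against siDCAF8 the siNS response was lower for DRD5 (-2.84), CHAC1 (-2.49), INHBE (-2.09), CTH (-1.94), SLC7A11 (-1.90) and DDIT4 (-1.63). It was higher for NRSN1 (1.74), SDF2L1 (1.52), HMOX1 (1.49), HSPA1B (1.46) and HSPA5 (0.98). NRSN1, a neuronal membrane protein, was at 3.63 and 5.36 FPKM in siNS and 6.09 and 5.6 FPKM in siNS/Erastin, and at 4.75 and 5.01 and 1.15 and 1.3 FPKM in siDCAF8.

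Against oeWDR76 the siNS response was lower for CHAC1 (-1.70), DDIT4 (-1.44), RANBP3L (-1.25), INHBE (-1.22) and KIF20A (-0.88). It was higher for HMOX1 (2.99), S100P (1.67), PRG2 (1.34) and GCLM (0.93). S100P was nearly absent from oeWDR76 cells, at 0 and 0.25 FPKM without and 0.24 and 0.12 FPKM with erastin, and its difference was not called with a pseudocount of 0.1 FPKM (adjusted p = 0.0675). PRG2 rose from 4.4 and 4.64 to 8.59 and 8.28 FPKM in siNS and was at 2.5 and 2.43 and 1.57 and 1.12 FPKM in oeWDR76. RANBP3L was at 3.35 and 3.28 FPKM in siNS and 0.88 and 0.63 FPKM with erastin, and at 0.67 and 0.78 FPKM in untreated oeWDR76 cells.

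Against siDCAF8+siLSH the siNS response was lower for CHAC1 (-3.14), DRD5 (-2.79), INHBE (-2.69), DDIT4 (-2.33), C5AR1 (-2.12), CTH (-1.90) and SLC7A11 (-1.76). It was higher for CDC25A (1.46), RGS4 (1.42) and HMGCS1 (1.29). DRD5, a dopamine receptor, was at 2.34 and 3.05 FPKM in siNS and 0.32 and 0.58 FPKM in siNS/Erastin, and at 0.85 and 0.85 and 3.47 and 4.67 FPKM in siDCAF8+siLSH. RGS4, a regulator of G-protein signalling, was at 40.3 and 37.9 and 41.8 and 45.2 FPKM in siNS and went from 54.5 and 56.6 to 23.4 and 21.6 FPKM in siDCAF8+siLSH.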

How the results depend on the processing

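The 4223 calls ranged from 3558 to 4548 over 10 other settings, and from 2796 to 3277 with 1 of the 4 libraries left out, of which 1077 to 1285 were higher. With a pseudocount of 0.1 FPKM 127 genes were called and at least 2-fold, against 66. Deviations of siNS and siNS/Erastin libraries of the same replicate number correlated at -0.18 across genes, and those of all pairs of groups at -0.21 to 0.39. Libraries that were paired without a shared shift would also correlate near 0, so these values cannot tell whether the numbers pair the libraries. With the number as a replicate block 4286 genes were called, 1734 higher and 2552 lower. Leaving out 1 library moved the differing responses to 1315 to 2330 against siDCAF8, 906 to 1313 against oeWDR76 and 1761 to 2732 against siDCAF8+siLSH. No named gene changed sign between the main fit and another setting where at least 1 of the 2 called it. Sign changes of genes called in neither were not counted. Depth limits genes near 1 FPKM most, and 2 libraries a group limit every p-value.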
